A study of Mus musculus with 11 samples.

Results

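The genes described here are the coagulation and fibrinolysis factors of mouse liver, 34 genes chosen by name: the clotting factors, the fibrinogen chains and the enzyme that crosslinks them, the natural anticoagulants, the plasminogen system, and 3 genes for the vitamin K cycle and a related protease. All 34 were found among the 13636 genes of the deposited table, and all 34 are named below. RNA came from the liver of male C57BL/6J mice. Western diet began when they were 8 weeks old, and after one month of it injections followed for 6 weeks. One group received PBS (4 libraries), one a scramble oligomer as control oligonucleotide (3 libraries), and one a mimic of the microRNA miR-30c (4 libraries). The dose of either oligomer rose from 2.5 over 5.0 to 7.5 mg/kg, and all 3 groups shared the diet. Whether every library stands for its own mouse is not said in the labels, and the spread behind each p-value is that between libraries, which may be technical.

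Blood clots when factor VII meets tissue factor outside the vessel lining, or when the contact factors are activated, and both routes lead through factor X to thrombin, which turns fibrinogen into fibrin. Antithrombin, heparin cofactor II and the protein C system hold thrombin formation in check, and plasmin, made from plasminogen, dissolves the clot. Hepatocytes make most of these proteins, endothelial cells supply factor VIII, von Willebrand factor and thrombomodulin, and several of the genes, the fibrinogen chains above all, belong to the acute phase response of the liver.

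The libraries held 62848115 to 101380174 counted reads in the PBS group, 74519792 to 88869950 in the scramble group and 39705157 to 60399018 in the mimic group. Values are CPM (reads of a gene relative to the reads of its library) with a further scaling per library by the authors, called scaled CPM here. Mimic replicates 1 and 4 stood apart from replicates 2 and 3: the 19 rows of major urinary proteins held 11.6% to 12.5% of the reads in replicates 1 and 4, against 34.8% to 41.3% in replicates 2 and 3 and 37.9% to 52.9% in the 7 control libraries. Where a call was lost without replicates 1 and 4, this is stated beside it, in most cases with the adjusted p. The labelled tissue was checked by 9 hepatocyte markers, which summed to 26348 to 33124 scaled CPM in PBS, 27728 to 31415 in scramble and 21275 to 26170 in mimic libraries. By limma at an adjusted p under 0.05, 1 of the 9 was higher and 0 lower in mimic against scramble. Against PBS, 1 was higher and 1 lower. Of all genes, 17.3% were higher and 14.7% lower against scramble, and 20.0% and 17.1% against PBS. In bulk liver, fewer cells of a type and less RNA per cell cannot be told apart.

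The agent given to the mimic group copies miR-30c, and the mature mouse sequence is shown because its seed, bases 2 to 8 in capitals, defines the sites that were searched in the members. It is the 5p arm, in RefSeq (GRCm38.p6), of Mir30c-1 at chr4:120769584-120769606 on the minus strand and Mir30c-2 at chr1:23291714-23291736 on the plus strand. The labels name the mimic and do not give its sequence.
mmu-miR-30c-5p: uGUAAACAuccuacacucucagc

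Of the 34 members, 2 (5.88%) carried a match to this seed in the longest annotated 3' untranslated region of the gene. Among genes of the deposited table with such a region matched by symbol, 1834 of 11456 (16.01%) did. Both members with a match were fibrinogen chains, and the match is in capitals below on the gene's strand in GRCm38. The Fgb site lies at chr3:83042024-83042030 on the minus strand and the Fgg site at chr3:83014620-83014626 on the plus strand.
Fgb site: atcatattcttTGTTTACgtttcctgcag
Fgg site: ctactgttcttTGTTTACtttataatcag
Neither fell in the mimic group. Fgb averaged 2040 ± 658 scaled CPM (SD, n = 4) in mimic, 1413 ± 201 (n = 3) in scramble and 1333 ± 112 (n = 4) in PBS libraries. A match is a description of the letters and does not show that the site was bound.

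Against the scramble group, 12 of the 34 members (35.3%) were higher in the mimic group and 3 (8.82%) lower, by limma at an adjusted p under 0.05, while 17.3% of all genes were called higher and 14.7% lower. Against PBS, 18 members (52.9%) were higher and 2 (5.88%) lower, beside 20.0% and 17.1% of all genes. The median difference of the members on the log2(scaled CPM + 1) scale was 0.21 against scramble and 0.35 against PBS, and 0.00 over all genes in both comparisons. The 2 comparisons share the mimic libraries. All 12 members higher against scramble were also higher against PBS. F5 and Klkb1 were lower in both, F13b against scramble alone, and Kng2, Fgb, Fgg, Proz, Plg and Ggcx were called higher against PBS alone. The other 13 were called in neither comparison.

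Without mimic replicates 1 and 4, the higher calls were 8 against scramble and 13 against PBS, and 1 member, Klkb1, was lower in each; of all genes, 11.6% and 12.8% were then higher and 7.12% and 8.37% lower. With values divided by library totals in place of the authors' scaling, 23 members were higher against scramble and 26 against PBS and 0 were lower, while 40.3% and 50.5% of all genes were higher and 0.807% and 0.880% lower. That scaling moved the median of all genes to 0.49 and 0.51, and relative to these shifts Klkb1 was at -0.32 and -0.40 and F5 at -0.39 and -0.35. Every row of the table reaches 1 CPM of the library total in at least 3 libraries, and F13a1, Plat and Plau do so only by counting mimic libraries. Plat and Plau reach it in 0 of the 7 control libraries, so they had to be higher in mimic libraries to be listed, and F13a1 reaches it in 2. Among the other 31 members, 9 (29.0%) were higher against scramble and 15 (48.4%) against PBS, where 14.6% and 17.4% of all genes that reach 1 CPM in 3 control libraries were higher.

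Between the 2 control groups, limma called 0 of the 34 members, as it called 0.0% of all genes higher and 0.0% lower. At an unadjusted p under 0.05 it picked 1 member, Proz, and 434 of all genes (3.18%). Called on recovered reads, edgeR gave 0 members and 0 genes and DESeq2 gave 0 members and 14 genes. In 13 members every mimic library lay above all 7 control libraries, and in 1, Klkb1, every one lay below; over all genes these shares were 14.4% and 11.5%. The 13 were F7, F10, Kng1, Fga, Fgl1, F13a1, Proz, Serpind1, Plg, Plat, Plau, Serpinf2 and Cpb2. They include F13a1, Plat and Plau, which are listed only by counting mimic libraries. The share over all genes likewise includes the 1120 genes that do not reach 1 CPM in 3 control libraries.

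**Figure D1:**
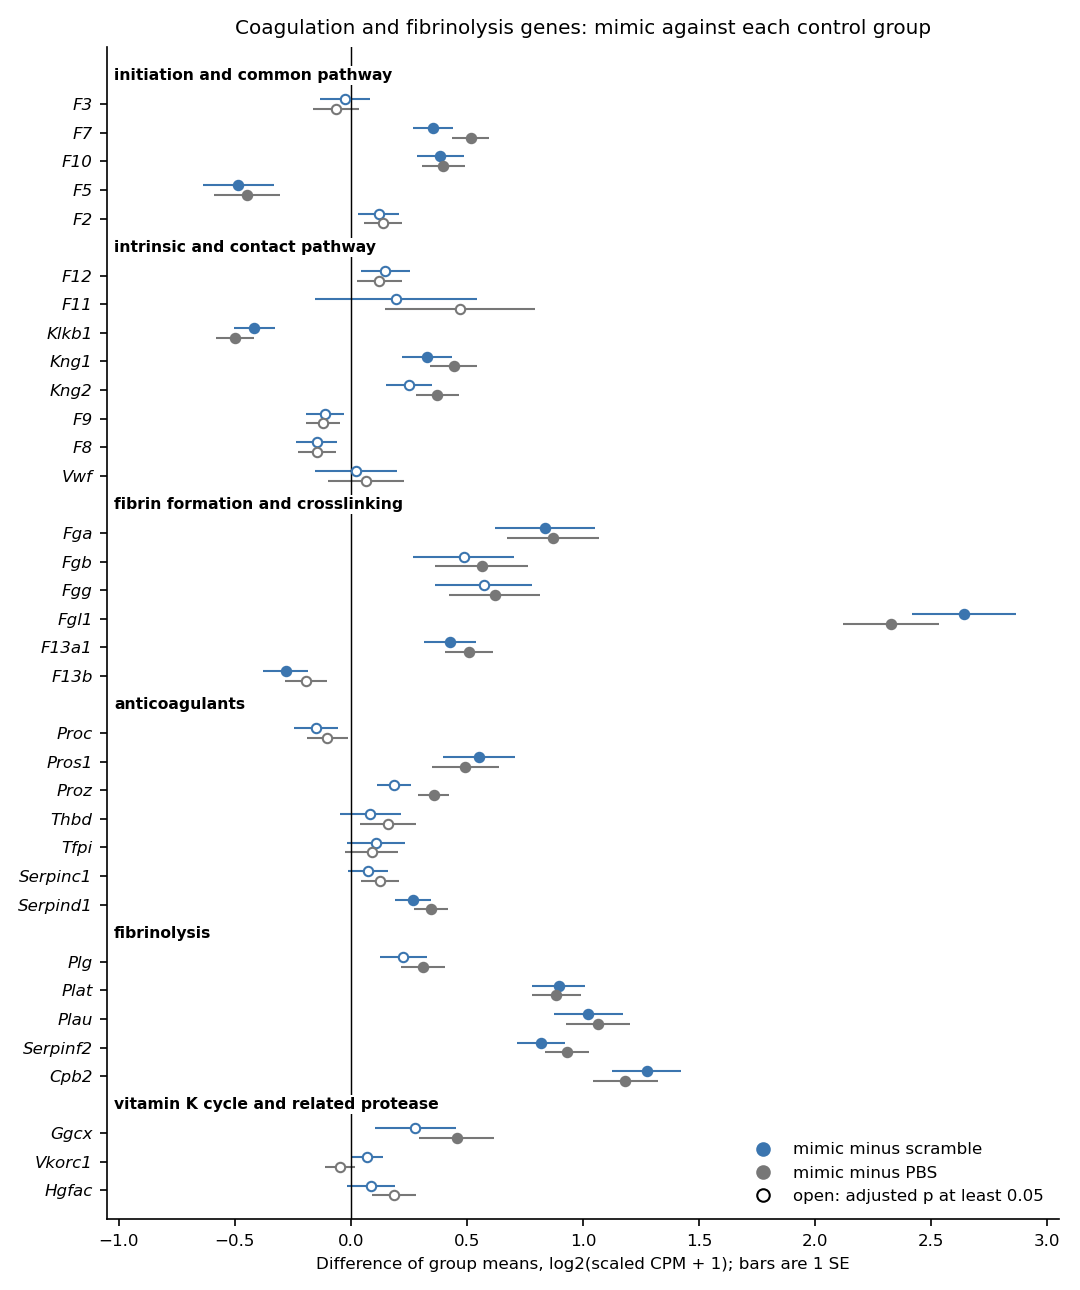
Difference in group means (x axis, log2 of scaled CPM + 1) for the 34 genes by role (y axis), mimic minus scramble in blue and mimic minus PBS in grey, with bars of 1 SE and filled points at an adjusted p under 0.05. Fgl1 lies farthest to the right (2.64 and 2.33), the 5 fibrinolysis genes all lie right of zero, and F5, Klkb1 and F13b lie left of it.

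**Figure D2:**
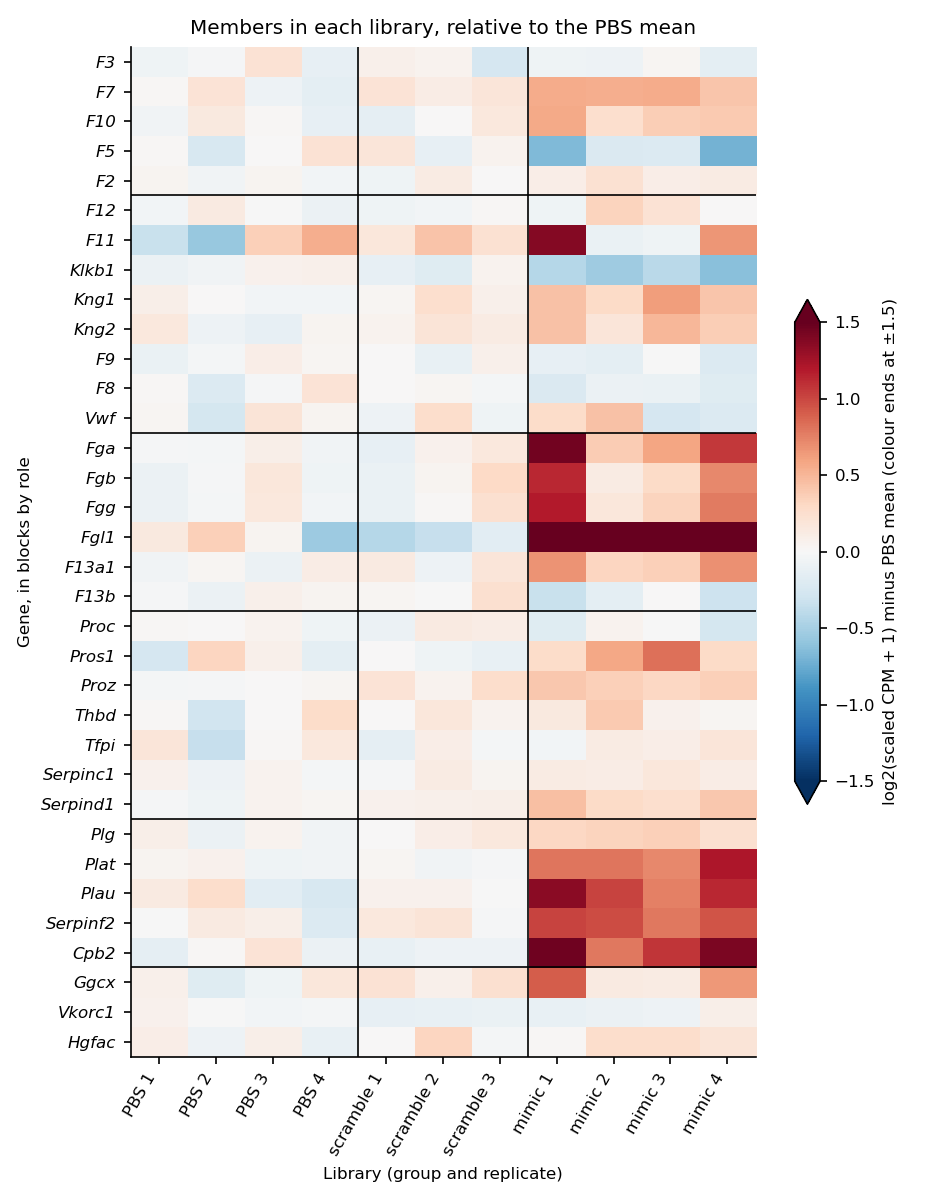
Each gene (rows, in blocks by role) in each of the 11 libraries (columns), as log2(scaled CPM + 1) minus the mean of the 4 PBS libraries, red above and blue below, with the colour ending at 1.5 in either direction. Red fills the mimic columns for F7, F10, Fgl1, Plat, Plau, Serpinf2 and Cpb2, while the fibrinogen chains, F11 and Ggcx are darker in mimic replicates 1 and 4 than in 2 and 3.

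Among the 5 genes of the initiation and common pathway, F7 and F10 rose and F5 fell in both comparisons, and F2 and F3 were not called. F7 encodes the protease that starts clotting with tissue factor. Its levels were 60.2, 59.7, 60.2 and 54.8 scaled CPM in mimic replicates 1 to 4, 46.9, 43.9 and 46.2 in scramble and 41.2, 47.1, 38.5 and 36.8 in PBS libraries. Every mimic library lay above every control library, and the fitted rise was 0.35 (SE 0.086, limma adjusted p = 0.00976) against scramble and 0.52 (SE 0.080, adjusted p = 0.000673) against PBS on the log2 scale. F7 kept its call without mimic replicates 1 and 4, at 0.38 and 0.55.

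F10, which encodes the factor that cuts prothrombin, read 180, 145, 158 and 160 in mimic, 111, 122 and 135 in scramble and 117, 134, 123 and 112 in PBS libraries. The lowest mimic library stood above the highest control library. The rise was 0.39 (SE 0.10, limma adjusted p = 0.0138) against scramble and 0.40 (SE 0.093, adjusted p = 0.00711) against PBS. It missed the threshold without mimic replicates 1 and 4 (adjusted p = 0.0874 and 0.0599) and, against scramble, without scramble replicate 1 (adjusted p = 0.0687).

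F7, F10 and Proz are direct neighbours on chromosome 8 of GRCm38, all on the plus strand. F7 spans chr8:13026034-13035809, with 1498 bases to F10 (chr8:13037308-13056676), and 4237 bases separate F10 from Proz (chr8:13060914-13076026). Proz encodes protein Z, a vitamin K-dependent cofactor of a factor Xa inhibitor. Its levels were 143, 138, 134 and 138 in mimic, 124, 112 and 130 in scramble and 106, 107, 109 and 110 in PBS libraries. All 3 groups were separate from each other, and Proz passed the test against PBS (0.36, SE 0.067, limma adjusted p = 0.00212) but not against scramble (0.19, SE 0.072, adjusted p = 0.0679).

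F5 encodes the cofactor that factor X needs to make thrombin. It read 211, 286, 291 and 204 in mimic, 379, 306 and 348 in scramble and 339, 284, 336 and 388 in PBS libraries. Mimic replicates 1 and 4 were the lowest, and replicates 2 and 3 were close to the lowest control libraries and overlapped PBS replicate 2. F5 fell by 0.49 (SE 0.15, limma adjusted p = 0.0319) against scramble and by 0.45 (SE 0.14, adjusted p = 0.0285) against PBS. The call was lost without mimic replicates 1 and 4 (-0.25 and -0.21, adjusted p = 0.233 and 0.269) and with quantile normalization (limma adjusted p = 0.0764 and 0.0706). Leaving out mimic replicate 1 or 4, scramble replicate 1 or 3 (against scramble), or PBS replicate 1, 3 or 4 (against PBS) also ended it, at a limma adjusted p of 0.0613 to 0.119. Exons of F5 overlap those of the opposite-strand lincRNA Gm16548 by 262 bases, and whether counting used strand is not given in the sources used here.

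F2, the prothrombin gene, averaged 594 ± 26.1 scaled CPM in mimic (SD, n = 4), 547 ± 34.5 in scramble (n = 3) and 539 ± 19.1 in PBS libraries (n = 4). The 95% interval of the fold was 0.9502 to 1.24 against scramble and 0.973 to 1.25 against PBS. F3, the tissue factor gene, lay between 1.23 and 2.09 in all 11 libraries, with a fold interval of 0.836 to 1.16 against scramble.

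Of the 8 intrinsic and contact pathway genes, Kng1 rose and Klkb1 fell in both comparisons, Kng2 rose against PBS, and F12, F11, F9, F8 and Vwf were not called. Klkb1 encodes plasma prekallikrein, which factor XII activates. Its levels were 150, 139, 152 and 130 in mimic, 185, 178 and 209 in scramble and 190, 194, 210 and 213 in PBS libraries. Every mimic library lay below every control library, with a fall by 0.42 (SE 0.090, limma adjusted p = 0.00536) against scramble and by 0.50 (SE 0.083, adjusted p = 0.00105) against PBS. Klkb1 kept its call without mimic replicates 1 and 4 (-0.39 and -0.47). Its exons overlap those of Gm45753 on the same strand by 2267 bases.

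F11, the gene of factor XI, lies next to Klkb1 on the minus strand of chromosome 8, with 4657 bases between them. F11 read 76.9, 27.0, 27.9 and 46.7 in mimic, 32.7, 39.6 and 34.3 in scramble and 22.9, 19.2, 37.7 and 42.8 in PBS libraries. The mimic libraries split, with replicates 1 and 4 at 2.25 times the mean of replicates 2 and 3, which was the widest such ratio among the 34 members. F11 was not called against scramble (0.19, SE 0.35) or PBS (0.47, SE 0.32), and its fold interval of 0.673 to 1.94 against scramble leaves changes of either sign undetected.

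Kng1 and Kng2 encode kininogens, the cofactors of prekallikrein, and lie 28382 bases apart on chromosome 16. They are close copies, so reads may have been split between them and each value is uncertain. Kng1 read 1013, 914, 1153 and 994 in mimic, 761, 886 and 784 in scramble and 790, 747, 724 and 725 in PBS libraries, above all controls in every mimic library. The rise was 0.33 (SE 0.11, limma adjusted p = 0.0399) against scramble and 0.44 (SE 0.10, adjusted p = 0.00625) against PBS, and the first was lost without mimic replicates 1 and 4 (adjusted p = 0.0892) and with quantile normalization (adjusted p = 0.0672). It was also lost on leaving out any 1 library except PBS replicate 2, scramble replicate 2 or mimic replicate 2, at a limma adjusted p of 0.0519 to 0.140. Kng2 averaged 190 ± 18.3 in mimic, 159 ± 7.63 in scramble and 146 ± 13.1 in PBS libraries, a rise of 0.37 (SE 0.092, limma adjusted p = 0.00932) against PBS. Without mimic replicates 1 and 4 that call was lost (0.34, limma adjusted p = 0.0614).

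The other contact and intrinsic members showed small differences. F12, factor XII, averaged 214 ± 27.7 in mimic and 192 ± 5.61 in scramble libraries, and F9, the factor IX gene whose loss causes haemophilia B, averaged 89.5 ± 5.49 and 96.8 ± 6.15. The fold intervals against scramble were 0.946 to 1.30 for F12 and 0.820 to 1.05 for F9. F8, whose loss causes haemophilia A, read 11.6 to 12.8 in mimic, 13.4 to 13.9 in scramble and 11.7 to 15.9 in PBS libraries and was not called (-0.15 against scramble and -0.14 against PBS). Vwf, von Willebrand factor, lay between 1.21 and 2.62 in all libraries. Of 12 endothelial markers, 1 was higher against scramble (Lyve1) and 3 lower against PBS (Kdr, Cdh5 and Stab2), and their summed level was 73.4 to 109 in mimic, 84.1 to 109 in scramble and 88.8 to 107 in PBS libraries. The part of endothelial content in the values of F8, Vwf and Thbd was not tested.

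Of the 6 genes of fibrin formation and crosslinking, Fga, Fgl1 and F13a1 rose in both comparisons, Fgb and Fgg rose against PBS, and F13b fell against scramble. Fibrinogen is built from Aα, Bβ and γ chains, the products of Fga, Fgb and Fgg. Fga read 2902, 1391, 1612 and 2226 in mimic, 981, 1113 and 1195 in scramble and 1055, 1050, 1138 and 1031 in PBS libraries. All 4 mimic libraries lay above all controls, and replicates 1 and 4 were the highest. The rise was 0.84 (SE 0.21, limma adjusted p = 0.0126) against scramble and 0.87 (SE 0.20, adjusted p = 0.00615) against PBS. Without mimic replicates 1 and 4 it was 0.45 (adjusted p = 0.0332) and 0.49 (adjusted p = 0.0190), and without scramble replicate 1 the first missed the threshold (adjusted p = 0.0550).

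Fgb read 2903, 1442, 1623 and 2192 in mimic, 1237, 1370 and 1631 in scramble and 1247, 1316, 1496 and 1274 in PBS libraries. Mimic replicates 2 and 3 lay within the range of the controls. The difference was 0.49 (SE 0.22, limma adjusted p = 0.106) against scramble and 0.56 (SE 0.20, adjusted p = 0.0451) against PBS, and 0.12 and 0.20 without mimic replicates 1 and 4 (adjusted p = 0.586 and 0.324). The call against PBS was also lost on leaving out any 1 library except mimic replicate 2 or 3, at a limma adjusted p of 0.0507 to 0.107.

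Fgg read 2169, 1072, 1201 and 1624 in mimic, 883, 958 and 1118 in scramble and 893, 934, 1061 and 920 in PBS libraries. Mimic replicate 2 lay below the highest scramble library, and the others lay above all controls. The difference was 0.57 (SE 0.21, limma adjusted p = 0.0576) against scramble and 0.62 (SE 0.20, adjusted p = 0.0281) against PBS. Without mimic replicates 1 and 4 it was 0.21 and 0.26 (adjusted p = 0.305 and 0.177). Against PBS the call was lost without PBS replicate 1 or 4 or mimic replicate 1 or 4, at a limma adjusted p of 0.0584 to 0.0711.

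**Figure D3:**
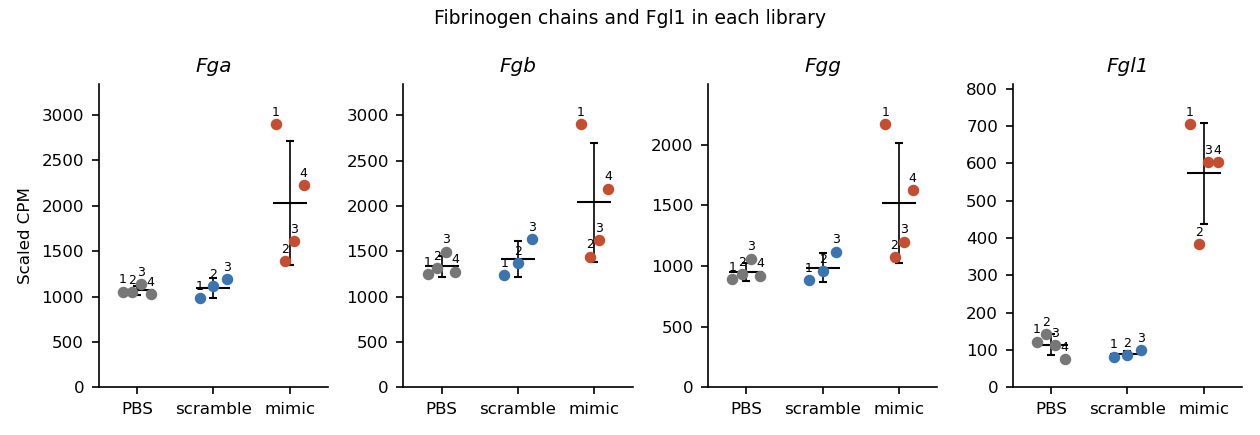
Scaled CPM (y axis, from 0, own scale per panel) of Fga, Fgb, Fgg and Fgl1 in each library of the PBS, scramble and mimic groups; points carry the replicate number, the dash is the mean and the bar 1 SD. Mimic replicates 1 and 4 are highest for the 3 fibrinogen chains, and all 4 mimic libraries of Fgl1 lie between 384 and 705, above the controls' highest value of 143.

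The ratio of 2 chains within a library does not depend on how libraries were scaled. Fga over Fgb was 0.9996, 0.964, 0.993 and 1.02 in the mimic libraries, 0.793, 0.813 and 0.732 in scramble and 0.846, 0.798, 0.761 and 0.809 in PBS libraries. The mimic libraries agreed closely here, replicates 1 and 4 with 2 and 3, and lay above every control library. Fgg over Fgb moved less, at 0.740 to 0.747 in mimic, 0.686 to 0.714 in scramble and 0.709 to 0.722 in PBS libraries. Per kilobase of coding sequence, Fgb was the highest chain in PBS (924 ± 77.6, SD, n = 4, against 639 ± 28.3 for Fga and 728 ± 57.0 for Fgg), but per kilobase of the annotated transcript, whose length is 3810 bases for Fgb, it was the lowest (350 ± 29.4 against 513 ± 22.7 and 561 ± 44.0). The order of the chains therefore depends on the length used.

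The 3 chains lie together on chromosome 3 of GRCm38, Fgg at chr3:83007724-83015049, Fga at chr3:83026076-83033627 and Fgb at chr3:83040141-83049863. Since they are neighbours whose levels moved together over the mimic libraries, the bases upstream of their starts are shown, taken from RefSeq promoter windows (GRCm38.p6), 5' to 3' on the gene's strand, with motif matches in capitals. Searched on both strands were CTGGGAA (a type II interleukin-6 response element), TTCNNNGAA (a STAT site), TTGCNNAA (a C/EBP site) and an HNF1 motif. The Fga stretch is chr3:83025903-83026075 (plus), the Fgb stretch chr3:83049864-83050113 (minus) and the Fgg stretch chr3:83007474-83007723 (plus).
Fga: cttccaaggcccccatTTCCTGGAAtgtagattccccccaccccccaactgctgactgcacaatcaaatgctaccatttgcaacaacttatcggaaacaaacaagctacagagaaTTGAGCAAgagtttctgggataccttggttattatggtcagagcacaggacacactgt
Fgb: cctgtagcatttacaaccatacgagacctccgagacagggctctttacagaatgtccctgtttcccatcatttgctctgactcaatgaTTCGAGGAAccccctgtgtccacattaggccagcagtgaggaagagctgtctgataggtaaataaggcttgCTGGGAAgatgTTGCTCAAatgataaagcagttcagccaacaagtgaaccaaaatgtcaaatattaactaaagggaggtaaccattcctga
Fgg: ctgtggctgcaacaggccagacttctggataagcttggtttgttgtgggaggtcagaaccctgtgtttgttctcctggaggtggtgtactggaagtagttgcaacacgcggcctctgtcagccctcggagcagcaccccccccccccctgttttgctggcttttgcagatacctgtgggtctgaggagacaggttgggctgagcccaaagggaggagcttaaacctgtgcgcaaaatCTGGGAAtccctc
Counted from the RefSeq start, the Fga stretch held a TTCNNNGAA match from base -234 and a TTGCNNAA match on the opposite strand from base -135. The Fgb stretch held TTCNNNGAA, CTGGGAA and TTGCNNAA matches from bases -162, -91 and -80, and the Fgg stretch a CTGGGAA match from base -13. Windows of 300 bases were at hand for 26 of the 34 members. Members were counted once per gene, while the share over all genes is per window and not limited to the deposited table. CTGGGAA was in 5 of the 26 (19.2%) and in 11.1% of 32851 windows of all genes, TTCNNNGAA in 5 (19.2%) and 8.30%, TTGCNNAA in 9 (34.6%) and 10.8%, and the HNF1 motif in 2 (F13b and Hgfac, 7.69%) and 0.399%. In F9 the CTGGGAA and TTCNNNGAA matches overlap. These are matches of letters, and no binding was measured.

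Fgl1 encodes fibrinogen-like protein 1, a liver protein related to fibrinogen that lacks the parts needed for clotting. It read 705, 384, 602 and 604 in mimic, 82.0, 87.0 and 98.9 in scramble and 123, 143, 114 and 75.8 in PBS libraries. Every mimic library was above every control, and the mean was 6.43 times that of scramble and 5.05 times that of PBS. The rise of 2.64 (SE 0.22, limma adjusted p = 2.57e-05) and 2.33 (SE 0.21, adjusted p = 2.34e-05) was the largest among the 34 members on the log2(scaled CPM + 1) scale, where the added 1 shrinks the difference of a low gene such as Plat. Fgl1 is also 1 of 14 acute phase genes examined beside the members, of which 13 were higher in both comparisons. Their summed level was 18377 to 42747 scaled CPM in mimic, 2590 to 3017 in scramble and 2416 to 3539 in PBS libraries, and the part of that response in the members' values was not tested.

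Factor XIII crosslinks fibrin; F13a1 encodes its catalytic subunit and F13b its carrier subunit, and the 2 moved in opposite directions against scramble. F13a1 read 2.27, 1.56, 1.62 and 2.31 in mimic, 1.26, 0.951 and 1.33 in scramble and 0.980, 1.10, 0.935 and 1.21 in PBS libraries, with no overlap. The rise was 0.43 (SE 0.11, limma adjusted p = 0.0154) against scramble and 0.51 (SE 0.11, adjusted p = 0.00372) against PBS, and the first was lost without mimic replicates 1 and 4 (adjusted p = 0.132), without scramble replicate 2 (adjusted p = 0.0645) or with quantile normalization (adjusted p = 0.0957). F13b read 65.9, 75.2, 83.2 and 67.0 in mimic, 84.5, 83.1 and 98.0 in scramble and 81.9, 77.9, 87.5 and 85.3 in PBS libraries, with overlap in both comparisons. It fell by 0.28 (SE 0.097, limma adjusted p = 0.0451) against scramble and was at -0.19 (SE 0.090, adjusted p = 0.109) against PBS. The F13b call was lost on leaving out any 1 library except PBS replicate 2 or mimic replicate 3, at a limma adjusted p of 0.0550 to 0.175. It was also lost without mimic replicates 1 and 4 together, and with quantile normalization (limma adjusted p = 0.213).

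F13a1 is known from cells of the monocyte and macrophage lineage and from platelets. All 8 measured monocyte and neutrophil markers were higher in the mimic group, among them Chil3, S100a9, Itgam and S100a8. Of all genes, 17.3% were higher against scramble and 20.0% against PBS. The sum of the 8 was 40.5 to 58.9 scaled CPM in mimic, 4.52 to 5.14 in scramble and 4.94 to 10.8 in PBS libraries. With control sums this low, some of the 8 may be listed only by counting mimic libraries, which was not checked. Of 10 macrophage markers, 2 were higher and 4 lower in each comparison, and their sums overlapped between groups (113 to 220, 92.5 to 171 and 93.3 to 203). Of 10 platelet markers listed, Itga2b is in the table, and it was at 1.26 to 2.16 in mimic, 1.44 to 2.02 in scramble and 1.30 to 2.20 in PBS libraries. The part of these cells in the F13a1 value was not tested.

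Of the 7 anticoagulant genes, Pros1 and Serpind1 rose in both comparisons, Proz against PBS, and Proc, Thbd, Tfpi and Serpinc1 were not called. Pros1 encodes protein S, the cofactor of activated protein C. It read 39.8, 49.6, 59.2 and 40.4 in mimic, 33.0, 31.4 and 30.3 in scramble and 27.4, 41.5, 34.8 and 29.5 in PBS libraries. Unlike the fibrinogen chains, the highest values were in mimic replicates 2 and 3, and the mean of replicates 1 and 4 was 0.737 times theirs. The rise was 0.55 (SE 0.16, limma adjusted p = 0.0199) against scramble and 0.49 (SE 0.14, adjusted p = 0.0203) against PBS, where PBS replicate 2 overlapped the mimic group. The calls were lost without scramble replicate 2 or 3 and without PBS replicate 1 or 4, at a limma adjusted p of 0.0517 to 0.0642.

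Serpind1 encodes heparin cofactor II, a thrombin inhibitor. It read 255, 228, 222 and 246 in mimic, 195, 197 and 199 in scramble and 185, 178, 194 and 190 in PBS libraries, with the mimic group above all others. The rise was 0.27 (SE 0.077, limma adjusted p = 0.0217) against scramble and 0.35 (SE 0.072, adjusted p = 0.00374) against PBS; without mimic replicates 1 and 4 it was 0.19 (adjusted p = 0.127) and 0.27 (adjusted p = 0.0335). The call against scramble was also lost without any 1 of the scramble replicates, mimic replicate 1 or mimic replicate 4, at a limma adjusted p of 0.0540 to 0.0721.

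Serpinc1, the antithrombin gene, averaged 634 ± 12.03 in mimic (SD, n = 4), 602 ± 28.2 in scramble (n = 3) and 582 ± 27.8 in PBS libraries (n = 4), with a fold interval of 0.923 to 1.20 against scramble. Proc, the protein C gene, averaged 171 ± 17.5, 190 ± 15.1 and 183 ± 6.19, with an interval of 0.779 to 1.04. Thbd, the thrombomodulin gene, and Tfpi, which encodes the inhibitor of the tissue factor pathway, averaged 1.27 ± 0.272 and 2.33 ± 0.216 in mimic and 1.13 ± 0.120 and 2.09 ± 0.249 in scramble libraries. These 4 were not called against either control. Exons of Serpinc1 overlap the opposite-strand gene Zbtb37 by 2942 bases.

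**Figure D4:**
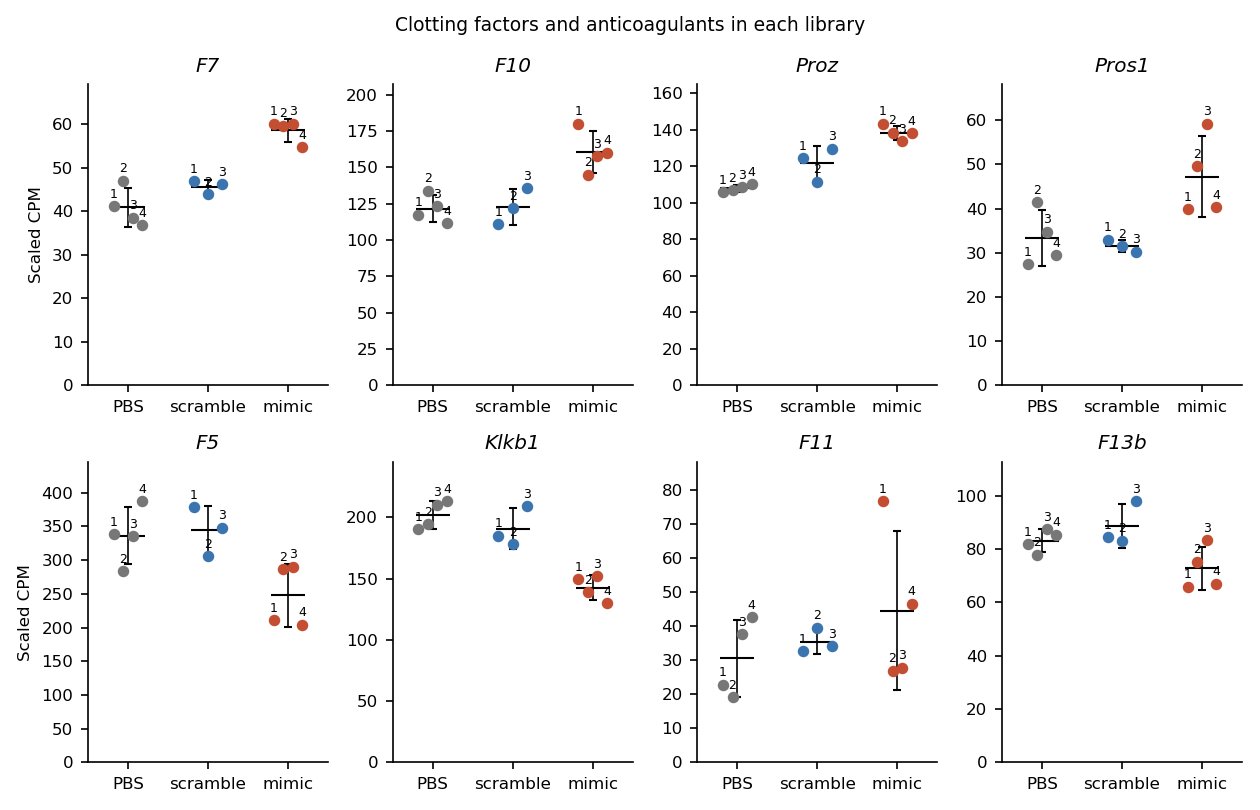
Scaled CPM (y axis, from 0, own scale per panel) of F7, F10, Proz, Pros1, F5, Klkb1, F11 and F13b in each library of the 3 groups; points carry the replicate number, the dash is the mean and the bar 1 SD. F7, F10 and Proz are above all 7 controls in every mimic library and Klkb1 is below them, while F11 is split between 27.0 and 76.9 within the mimic group.

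The 5 fibrinolysis genes all rose against PBS, and all but Plg rose against scramble, beside 20.0% and 17.3% of all genes. In all 5, every mimic library lay above every control library, as in 14.4% of all genes. Plat and Plau could be listed only by being higher in mimic libraries, which did not hold for Plg, Serpinf2 and Cpb2. Plg encodes plasminogen. It read 1224, 1247, 1269 and 1163 in mimic, 989, 1055 and 1103 in scramble and 1051, 927, 1024 and 955 in PBS libraries. The difference was 0.23 (SE 0.10, limma adjusted p = 0.108) against scramble and 0.31 (SE 0.094, adjusted p = 0.0233) against PBS, the latter lost without PBS replicate 4 (adjusted p = 0.0635) and with quantile normalization (adjusted p = 0.0619). Exons of Plg overlap the opposite-strand gene Slc22a3 by 420 bases.

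Plat and Plau encode the tissue-type and urokinase-type plasminogen activators. Plat read 1.01, 0.999, 0.889 and 1.68 scaled CPM in mimic, 0.178, 0.106 and 0.140 in scramble and 0.181, 0.205, 0.104 and 0.113 in PBS libraries. These values came from 52 to 147 reads in mimic and 7 to 12 reads in control libraries. The mean was 8.09 times that of scramble and 7.59 times that of PBS, and the fitted rise with the added 1 was 0.90 (SE 0.11, limma adjusted p = 0.000240) and 0.88 (SE 0.11, adjusted p = 0.000141). With edgeR on recovered reads, which adds less to low values, it was 3.02 and 2.93.

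Plau read 2.32, 1.62, 1.20 and 1.85 in mimic, 0.356, 0.356 and 0.296 in scramble and 0.422, 0.558, 0.163 and 0.0968 in PBS libraries. It rested on 70 to 162 reads in mimic and 6 to 30 reads in control libraries. The rise was 1.02 (SE 0.15, limma adjusted p = 0.000574) against scramble and 1.07 (SE 0.14, adjusted p = 0.000234) against PBS, and 2.37 and 2.51 with edgeR. Both activators are made by several cell types. Their rise ran beside that of the monocyte and neutrophil markers, some of which may likewise be listed only by counting mimic libraries. It also ran beside stellate cell markers, of which 4 of 9 were higher (Col1a1, Col3a1, Pdgfrb and Des) and 1 lower (Reln). The stellate sum was 162 to 298 in mimic, 90.7 to 101 in scramble and 63.6 to 101 in PBS libraries, and the part of either cell type was not tested.

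The 2 inhibitors of fibrinolysis rose as well. Serpinf2 encodes α2-antiplasmin, which blocks plasmin. It read 417, 408, 358 and 400 in mimic, 231, 237 and 204 in scramble and 205, 227, 219 and 180 in PBS libraries. The gap between mimic and control libraries was wider than the spread within any group, with a rise of 0.82 (SE 0.10, limma adjusted p = 0.000226) against scramble and 0.93 (SE 0.095, adjusted p = 5.4e-05) against PBS.

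Cpb2 encodes the carboxypeptidase known as thrombin-activatable fibrinolysis inhibitor, which removes plasminogen binding sites from fibrin. It read 340, 214, 259 and 329 in mimic, 113, 117 and 116 in scramble and 112, 125, 142 and 116 in PBS libraries. The mean was 2.47 times that of scramble and 2.31 times that of PBS, a rise of 1.27 (SE 0.15, limma adjusted p = 0.000149) and 1.18 (SE 0.14, adjusted p = 0.000124). Without mimic replicates 1 and 4 the rise was 1.02 and 0.93 (limma adjusted p = 0.000625 and 0.000674). F7, Fgl1, Plat, Plau, Serpinf2 and Cpb2 were the 6 of the 12 genes higher against scramble that kept the call in every alternative analysis they entered. Of these 6, Plat and Plau had to be higher in mimic libraries to be listed, so their stable calls add no support.

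**Figure D5:**
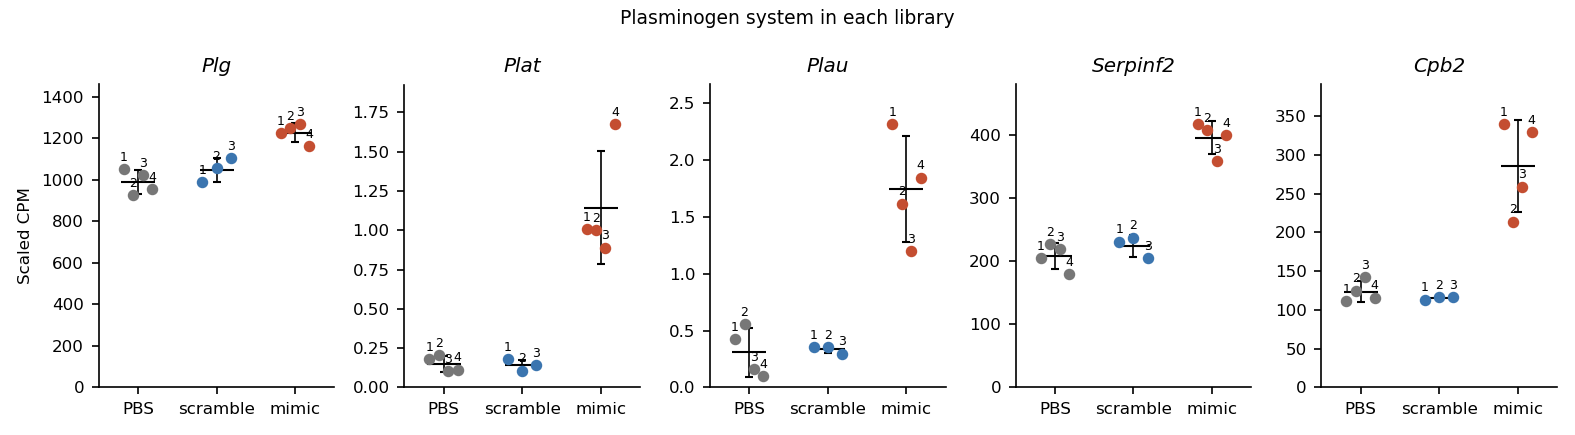
Scaled CPM (y axis, from 0, own scale per panel) of Plg, Plat, Plau, Serpinf2 and Cpb2 in each library of the PBS, scramble and mimic groups; points carry the replicate number, the dash is the mean and the bar 1 SD. In each panel the 4 mimic points lie above all 7 control points, by the narrowest margin for Plg (1163 against 1103).

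The last 3 members serve the vitamin K cycle or are related proteases. Ggcx encodes the carboxylase that modifies the vitamin K-dependent factors. It read 29.6, 16.8, 16.8 and 24.7 in mimic, 18.004, 16.2 and 18.2 in scramble and 16.1, 13.4, 14.6 and 17.4 in PBS libraries. Mimic replicates 1 and 4 were high and replicates 2 and 3 lay among the controls. The difference was 0.28 (SE 0.17, limma adjusted p = 0.240) against scramble and 0.46 (SE 0.16, adjusted p = 0.0442) against PBS, and the latter was 0.13 (adjusted p = 0.402) without mimic replicates 1 and 4. It also missed the threshold on leaving out any 1 library except mimic replicate 2 or 3, at a limma adjusted p of 0.0517 to 0.116. Vkorc1, the vitamin K reductase that warfarin inhibits, averaged 38.3 ± 2.63 in mimic, 36.4 ± 0.352 in scramble and 39.5 ± 1.30 in PBS libraries and was not called. Its exons overlap those of Gm21974 on the same strand by 401 bases. Hgfac, which encodes a protease that activates hepatocyte growth factor, averaged 66.3 ± 5.40, 62.6 ± 8.71 and 58.2 ± 4.49 and was not called.

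The 7 vitamin K-dependent proteins, F2, F7, F9, F10, Proc, Pros1 and Proz, were grouped after their values were known. Of these, 3 were higher against scramble (F7, F10 and Pros1) and 4 against PBS (with Proz), and 0 were lower. Of all genes, 17.3% and 20.0% were higher in these comparisons and 14.7% and 17.1% lower. The differences of the 7 ran from -0.15 (Proc) to 0.55 (Pros1) against scramble and from -0.12 (F9) to 0.52 (F7) against PBS.

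The mimic libraries did not differ in 1 direction across the members. Replicates 1 and 4 were both above replicates 2 and 3 in 12 of the 34 members and both below in 8, beside 25.9% and 27.2% of all genes. The ratio of the means of these pairs was 1.71 for Fga, 1.66 for Fgb, 1.67 for Fgg, 1.61 for Ggcx, 1.48 for Plau, 1.41 for Cpb2 and 1.33 for Fgl1. F5 at 0.720, Pros1 at 0.737 and F12 at 0.809 lay at the other end, and F7 at 0.959, Klkb1 at 0.961 and Serpinf2 at 1.07 were near even.

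Among 33 further genes of haemostasis measured in the table, 13 were higher and 2 lower in the mimic group against scramble, and 15 were higher and 4 lower against PBS, with median differences of 0.29 and 0.27, beside 17.3% higher and 14.7% lower of all genes against scramble and 20.0% and 17.1% against PBS. Procr, Plaur, A2m and Thbs1 are listed only by counting mimic libraries. Among the other 29, 10 (34.5%) were higher and 2 lower against scramble, and 12 (41.4%) higher and 4 lower against PBS. Plaur, the urokinase receptor, rose from 0.293 ± 0.0762 in scramble (n = 3) and 0.266 ± 0.109 in PBS (n = 4) to 2.45 ± 0.522 in mimic libraries (n = 4), by 1.40 and 1.44 (limma adjusted p = 3.19e-05 and 1.28e-05). Plaur and Thbs1, like Plat and Plau, reach 1 CPM in 0 control libraries and had to be higher in the mimic group to be listed. Serping1, the C1 inhibitor that also blocks plasma kallikrein, rose from 325 ± 12.8 in scramble to 628 ± 85.3 in mimic libraries. Thbs1, Itih1 and Anxa2, which encode thrombospondin 1, an inter-alpha inhibitor heavy chain and a plasminogen-binding annexin, also rose in both comparisons.

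Nqo1, a quinone reductase, rose in both comparisons. So did Serpina10, singled out after its values were seen because it encodes the inhibitor that protein Z serves, from 59.6 ± 5.98 in scramble to 121 ± 38.0 in mimic libraries. Serpine2, a thrombin inhibitor called protease nexin 1, fell from 11.6 ± 4.99 to 3.57 ± 1.02, by 1.41 (SE 0.34, limma adjusted p = 0.00936) against scramble. Vkorc1l1, a relative of Vkorc1, fell in both comparisons, by 0.32 and 0.44. Adamts13, the protease of von Willebrand factor, and Stab2, a clearance receptor, fell against PBS, by 0.42 and 0.33.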

How the data were processed

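Liver RNA from 11 libraries was read as paired reads of 48 bases from a stranded mRNA kit, per the labels' protocols, and RNA integrity numbers of 8.4 to 9.2 are given for 7 libraries. Bowtie, SAMtools 0.1.19, bedtools 2.17.0 and edgeR 3.8.6 with the build mm10 are named in the submitters' processing notes, without their order, and the counting step is not given in the sources used here. The table the authors deposited holds a normalized signal, CPM with a further scaling per library. Its steps gave whole reads in 100% of values within 0.01 reads, so depth is known. Every row reached 1 CPM of the library total in at least 3 libraries.

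In R 4.3.3, limma 3.58.1 was fitted to log2(value + 1), as the main test, with one mean per group over 11 libraries, an intensity trend, and Benjamini-Hochberg adjustment over 13636 genes at 0.05. Adding 1 shrinks differences of low genes. A plain CPM had been assumed in the plan, and the same test was used on the scaled values. Alternatives were a pseudocount of 0.25, genes with a mean of at least 5, library totals, quantile normalization, a replicate block, only the groups compared, array weights, edgeR 4.0.16 and DESeq2 1.42.0 on recovered reads, each library left out, and mimic replicates 1 and 4 left out. The test was checked on simulated counts. Coordinates are from GENCODE M21 (GRCm38, the assembly of mm10), sequences from RefSeq (GRCm38.p6). All 34 members are named; of other genes, called ones were eligible, at most 6 per direction and comparison with the smallest p. The members, lists and roles were chosen with earlier results of these data known.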

Additional observations from a re-analysis of the deposited data

Results flagged for a closer look

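Among 68 sets of 4 libraries (34 members in the PBS and mimic groups), 3 held a library whose gap to its nearest neighbour was wide for the range of its group by Dixon's test, which chance alone gives in about 1 of 20 sets. In all 3 it was mimic replicate 4: F7 at 54.8 scaled CPM, below 59.7 to 60.2 in the other mimic libraries, Plat at 1.68, above 0.889 to 1.01, and Vkorc1 at 42.2, above 36.5 to 37.4. F7 and Plat lay above all control libraries in mimic replicate 4 as in the other 3.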

How the results depend on the processing

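Scaling had the widest effect. With library totals, 23 members were higher against scramble and 0 lower, and 26 and 0 against PBS; the called falls changed sign, F5 to 0.10 against scramble and 0.16 against PBS, Klkb1 to 0.17 and 0.11, and F13b to 0.30 against scramble, while the median of all genes moved to 0.49 and 0.51 and 40.3% and 50.5% of all genes were higher. With quantile normalization 1 member was lower in each comparison, beside 16.5% of all genes against scramble and 19.2% against PBS. In fits of only the groups compared, Kng1 and F13b against scramble and Fgb and Ggcx against PBS lost their calls. Array weights gave 4 members lower against PBS, beside 22.7% of all genes. Without mimic replicates 1 and 4, 1 member was lower in each comparison, beside 7.12% and 8.37% of all genes. The cause of these changes was not tested. Leaving out 1 library at a time gave 8 to 15 higher and 1 to 3 lower against scramble, and 13 to 18 higher and 1 to 3 lower against PBS. The 8 higher members against scramble came without scramble replicate 1, where 12.2% of all genes were higher. Only 1 lower member was left against scramble without scramble replicate 1 or 3 or mimic replicate 1 or 4. The same held against PBS without PBS replicate 1, 3 or 4 or mimic replicate 1 or 4. Calls held in every alternative for 6 of the 12 genes higher against scramble and 11 of the 18 against PBS, and for 0 of the 3 and 0 of the 2 lower genes. The stable higher genes include Plat and Plau, and against PBS also F13a1, which are listed only by counting mimic libraries. Between scramble and PBS, 0 members were called under any alternative. Libraries of different groups were also correlated after the group mean of each gene was subtracted. Those with the same replicate number correlated at -0.28 to 0.26 (10 pairs) and others at -0.40 to 0.35 (30 pairs). These ranges overlap and showed no pairing by number, but cannot exclude it. With the replicate number as a block, 10 members were higher and 2 lower against scramble, beside 15.5% and 12.4% of all genes. Against PBS, 17 members were higher and 1 lower, beside 18.3% and 15.3% of all genes. Depth limits the low genes, with 6 to 30 reads for Plat and Plau in control libraries.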
